A study of Homo sapiens with 6 samples.

Results

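The SLC25 mitochondrial carriers and the sideroflexins were compared between SW620 cells with a stable short hairpin RNA against ECM1 (shECM1) and SW620 cells with a negative control hairpin (shNC). Members were taken by name from a deposited table of counts over 20476 genes, as every gene whose symbol is SLC25A followed by a number or SFXN1 to SFXN5. The names matched 54 rows, which carried 53 symbols, 48 of them carriers and 5 sideroflexins. A member also needed at least 10 counts in at least 3 of the 6 libraries, which left 44 genes, 39 carriers and 5 sideroflexins. Of these 44 genes, 43 had at least 10 counts in every library. Just inside stood SLC25A53, with 18, 18 and 29 counts in shECM1 and 19, 17 and 8 in shNC, and just outside stood SLC25A41, with 2, 6 and 11 counts in shECM1 and 13, 3 and 6 in shNC. The other rows outside had at most 12 counts in any library, and SLC25A31 and SLC25A48 had 0 in all 6. The family was taken up after the difference in SFXN4 had been seen, so the difference in SFXN4 is given here as a description. The p-values of the other members are those of the whole table and are no independent support for a pattern of the family.

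SW620 is an established human colorectal cancer line that derives from a lymph node metastasis, and both groups carry a hairpin construct. Each group had 3 libraries, and the labels give no clone, vector or growth condition. The series asks about ECM1, a secreted glycoprotein of the extracellular matrix, and the chemokine CCL20. Columns of the table were matched to the groups by their letters (S for shECM1, C for shNC), which is an inference from names, and the opposite reading would turn every direction round.

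The mitochondrial inner membrane is closed to most solutes. SLC25 carriers are its main transporters, and most of them exchange a substrate on one side for another on the other side: ADP for ATP, phosphate, carboxylates, amino acids, cofactors or iron. Sideroflexins are a separate family of mitochondrial membrane proteins, of which SFXN1 imports serine for one-carbon metabolism and SFXN4 takes part in the assembly of respiratory complex I and in iron-sulfur and iron balance. In growing tumour cells these proteins link the cytosol to respiration, nucleotide synthesis and lipid synthesis.

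ECM1, the target of the hairpin, was at 14.8, 13.6 and 8.41 CPM in the shECM1 libraries, against 38.8, 19.0 and 52.3 CPM in the shNC libraries. CPM are counts scaled to a common library total with trimmed mean of M values (TMM) factors. Its log2 fold change of -1.58 ± 0.32 (SE) was not called (edgeR quasi-likelihood, Benjamini-Hochberg adjusted p = 0.0973), and DESeq2 called it (adjusted p = 0.0254). Totals ran from 9881720 to 16813951 counts per library. On the first principal component, with 58.1% of the variance, shNC replicate 2 lay at -8.64, on the side of the shECM1 libraries (-23.3 to -16.6), while shNC replicates 1 and 3 lay at 25.2 and 41.3. All 7 epithelial markers passed the count filter, at a summed level of 10319 to 11662 CPM in shECM1 and 10644 to 15335 CPM in shNC. PDGFRA, COL3A1, PTPRC, CD3E and KDR, markers of fibroblasts, immune and endothelial cells, had 0 counts in every library. So had TIMM10B and MICU3, mitochondrial genes of the related lists below, and why a gene had 0 counts was not tested. Other markers of these cell types were detected, among them the immune marker LYZ with 49 to 221 counts per library and the endothelial markers VWF (58 to 128) and PECAM1 (19 to 45). Summed levels were 16.7 to 20.9 CPM in shECM1 and 23.5 to 35.5 CPM in shNC for 6 fibroblast markers. They were 5.06 to 6.66 CPM in shECM1 and 5.24 to 15.9 CPM in shNC for 5 immune markers, and 8.04 to 9.22 CPM in shECM1 and 9.73 to 12.1 CPM in shNC for 4 endothelial markers. The fibroblast and endothelial sums did not overlap between the groups, and their part in the differences below was not tested. The libraries are treated as bulk samples, in which fewer cells that express a gene and less RNA per cell cannot be told apart.

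Across the family the differences were small, and the share of positive values was near that of all genes. The median log2 fold change, shECM1 minus shNC, was 0.13 over the 44 members and 0.01 over the 12576 genes tested. Between replicates, the median member level had a pooled SD of 0.155 in log2 units. The quartiles of the members were -0.07 and 0.36, against -0.22 and 0.19 for all genes. A positive value was found in 26 members (59.1%), against 51.4% of all genes, and a negative one in 18 (40.9%), against 48.6%. No member was called by edgeR at an adjusted p under 0.05 (0 of 44, against 0% of all genes), and limma-voom also called 0 members and 0% of all genes. At an unadjusted p under 0.05, edgeR gave 13 members (22.5% of all genes), of which 10 were higher (22.7% of the members, against 8.31% of all genes) and 3 lower (6.82%, against 14.2%). At that unadjusted p limma-voom gave 13 members (22.1% of all genes), 10 higher (8.79%) and 3 lower (13.3%). The groups did not overlap in 17 members (38.6%, against 24.4% of all genes). In 13 of them (29.5% of the members) every shECM1 library lay above every shNC library, as in 11.2% of all genes. In 4 members (9.09%) every shECM1 library lay below, as in 13.2% of all genes. Some margins among the 13 were very small. The lowest shECM1 and highest shNC level were 20.78 and 20.69 CPM in SLC25A37, and 50.24 and 50.20 CPM in SLC25A13. With library size as the only scaling, 15 members in all did not overlap. DESeq2 called 2 members (5.57% of all genes), SFXN4 higher (0.883%) and SLC25A29 lower (4.69%). With no count filter edgeR called the same 2 (3.08% of all genes, 0.256% higher and 2.83% lower). SFXN4, whose difference led to the choice of the family, is among the higher members counted in this paragraph and adds no support to these counts. Reads of SLC25A11, SLC25A12, SLC25A23, SLC25A25, SLC25A26, SLC25A32, SLC25A35, SLC25A40, SLC25A46, SLC25A53 and SFXN3 may include those of an expressed gene that overlaps on the opposite strand.

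**Figure D1:**
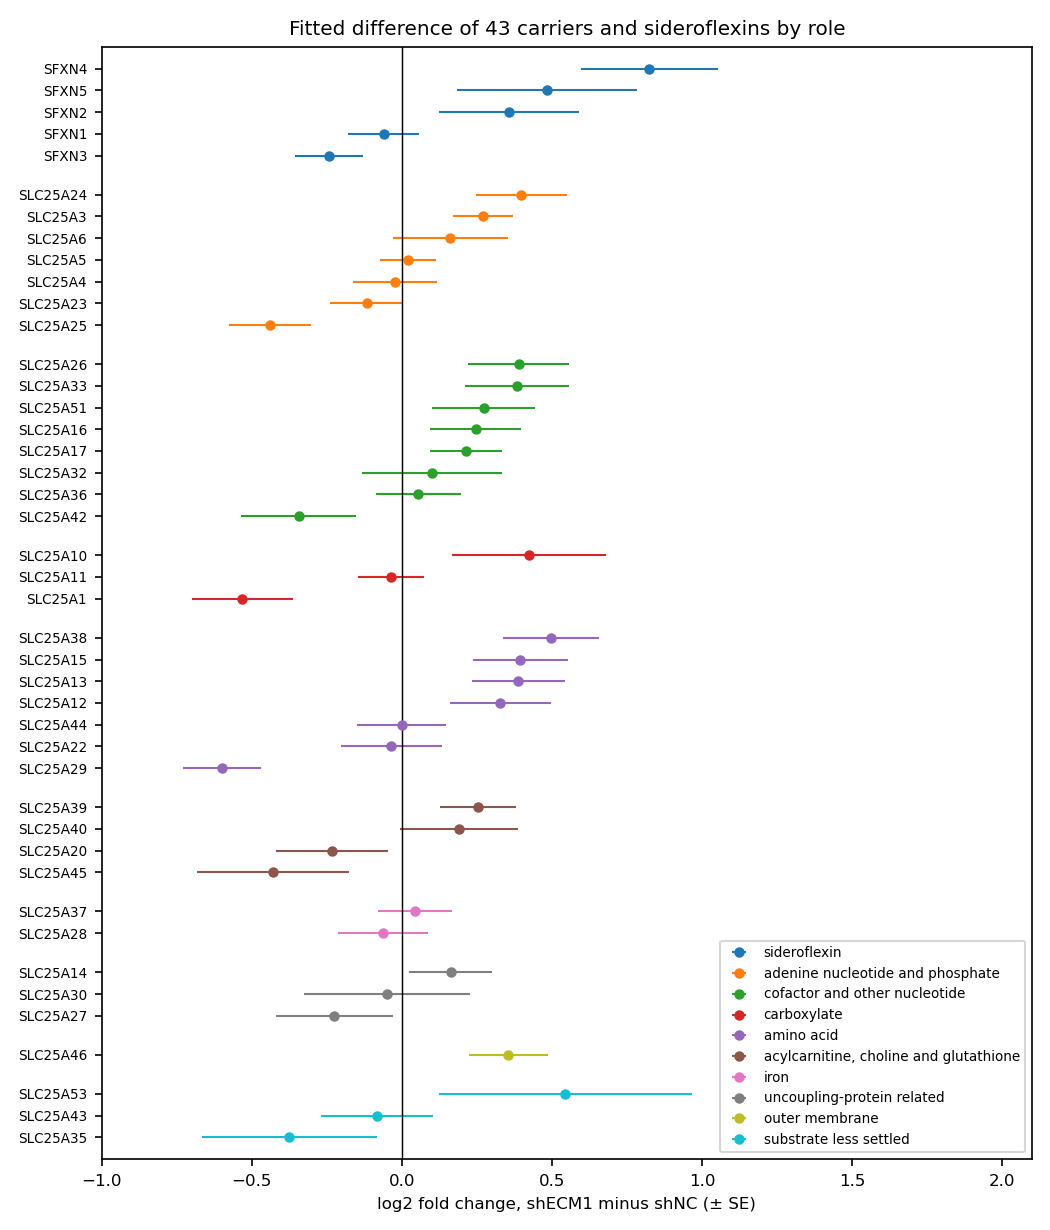
Fitted log2 fold change, shECM1 minus shNC, of 43 members (x axis, points with SE bars), grouped by the role of the protein and ordered by value within each role. SFXN4 stands farthest to the right at 0.82 and SLC25A29 farthest to the left at -0.60, and most roles hold members on both sides of 0.

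The sideroflexins had values on both sides of 0. SFXN4 (ENSG00000183605, GRCh38 chromosome 10, 119140767 to 119165667, minus strand) was at 28.9, 29.0 and 35.0 CPM in shECM1, against 14.4, 25.4 and 12.6 CPM in shNC. All shECM1 libraries lay above all shNC libraries, and shNC replicate 2 was the control nearest to them. The means were 30.9 ± 3.49 CPM in shECM1 and 17.4 ± 6.91 CPM in shNC (SD, n = 3 each), a fitted 1.77-fold higher level (log2 fold change 0.82 ± 0.23 SE). SFXN3, a relative of the serine importer SFXN1, was at 62.8, 57.7 and 55.2 CPM in shECM1 and at 66.4, 65.1 and 76.0 CPM in shNC. The groups of SFXN3 did not overlap either, in the opposite direction, and its log2 fold change of -0.24 ± 0.11 (SE) was not called by edgeR (adjusted p = 0.229). With an offset for transcript GC content it was -0.10. SFXN1 was at 64.6, 66.5 and 62.2 CPM in shECM1, against 66.3, 59.3 and 76.0 CPM in shNC. Its groups overlapped (log2 fold change -0.06 ± 0.12 SE, edgeR adjusted p = 0.786).

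SFXN2 was at 8.04, 7.27 and 9.51 CPM in shECM1 and 7.19, 7.76 and 4.44 CPM in shNC. The 2 groups overlapped, with the lowest level in shNC replicate 3 (log2 fold change 0.36 ± 0.23 SE, edgeR adjusted p = 0.374). Without that library the value was 0.14. SFXN5 was the least abundant, at 1.89, 2.14 and 3.22 CPM in shECM1, against 1.69, 1.80 and 1.72 CPM in shNC, from 19 to 44 counts per library. Its groups did not overlap, and its log2 fold change of 0.48 ± 0.30 (SE) was not called (edgeR adjusted p = 0.353). Without shECM1 replicate 3 it was 0.23. RAB11FIP5 overlaps SFXN5 on the same strand, so reads of that gene may enter its count. Summed over the 5 sideroflexins, the level was 162.6 to 166.3 CPM in shECM1 and 156.0 to 170.8 CPM in shNC, and the groups overlapped in this sum. Per kilobase of merged exons, averaged over the 6 libraries, the order of levels was SFXN3 (13.8 CPM per kb), SFXN4 (13.0), SFXN1 (8.70), SFXN2 (0.917) and SFXN5 (0.187). This order depends on the merged-exon length, which was 1.87 kb in SFXN4 and 7.57 kb in SFXN1. In CPM, SFXN1 was above SFXN4 in every library.

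**Figure D2:**
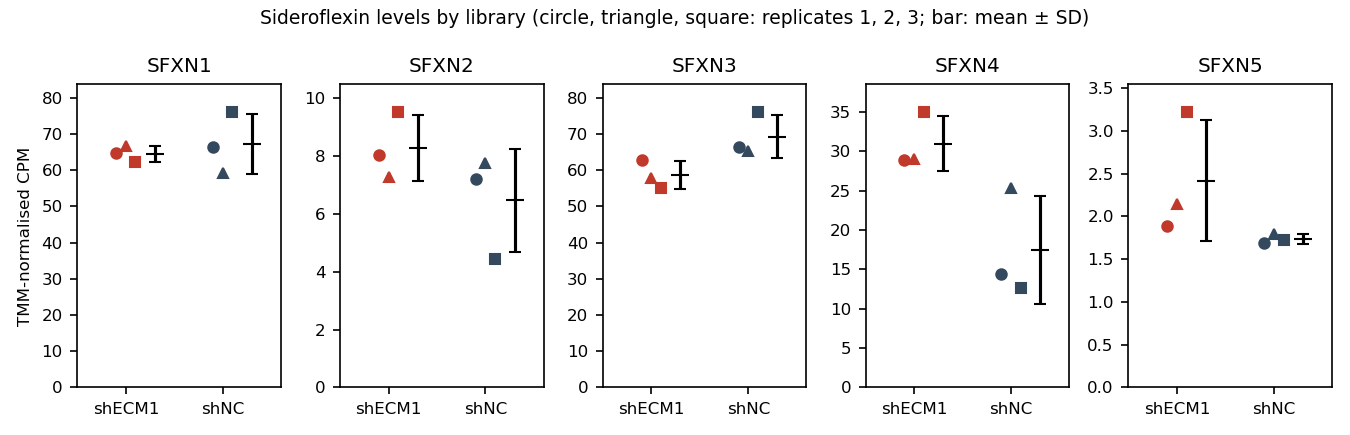
TMM-normalised CPM (y axis) of SFXN1 to SFXN5 in each shECM1 library (left, red) and each shNC library (right, dark), with the mean ± SD of 3 libraries as a bar. In SFXN4 the shECM1 libraries lie at 28.9 to 35.0 CPM, and the shNC triangle, replicate 2, lies at 25.4 CPM, well above the other shNC libraries.

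Stretches upstream of the start site are shown for 4 members, picked with their values and motif matches known. Of the 4 members, 2 stand at the ends of the range of differences and 2 hold matches of both motifs marked below. They are SFXN4 (chr10:119165715-119165964, minus strand), the glycine carrier gene SLC25A38 (chr3:39383120-39383369, plus strand), the outer membrane member SLC25A46 (chr5:110738757-110739006, plus strand) and the basic amino acid carrier gene SLC25A29 (chr14:100306445-100306694, minus strand). Each is the 250 bases before the outermost start listed by RefSeq on build GRCh38.p14, written 5′ to 3′ along the gene's strand, and capitals mark a CCGGAAG match (the core of ETS factor sites) or a CACGTG match (the E-box of MYC and related factors) on either strand.
SFXN4: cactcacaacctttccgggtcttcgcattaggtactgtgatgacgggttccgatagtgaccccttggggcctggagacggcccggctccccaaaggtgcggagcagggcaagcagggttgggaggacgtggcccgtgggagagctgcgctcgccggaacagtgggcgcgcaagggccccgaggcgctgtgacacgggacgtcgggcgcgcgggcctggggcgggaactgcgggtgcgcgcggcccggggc
SLC25A38: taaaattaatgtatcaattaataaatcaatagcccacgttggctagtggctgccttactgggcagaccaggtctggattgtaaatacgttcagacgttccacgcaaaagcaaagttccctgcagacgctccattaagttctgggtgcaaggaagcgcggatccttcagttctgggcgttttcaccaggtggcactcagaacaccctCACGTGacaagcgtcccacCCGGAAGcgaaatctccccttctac
SLC25A46: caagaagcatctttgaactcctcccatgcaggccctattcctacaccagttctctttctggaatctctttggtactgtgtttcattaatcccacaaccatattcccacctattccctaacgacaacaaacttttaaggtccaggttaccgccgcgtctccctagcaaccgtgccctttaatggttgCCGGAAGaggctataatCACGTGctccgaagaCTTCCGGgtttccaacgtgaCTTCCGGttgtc
SLC25A29: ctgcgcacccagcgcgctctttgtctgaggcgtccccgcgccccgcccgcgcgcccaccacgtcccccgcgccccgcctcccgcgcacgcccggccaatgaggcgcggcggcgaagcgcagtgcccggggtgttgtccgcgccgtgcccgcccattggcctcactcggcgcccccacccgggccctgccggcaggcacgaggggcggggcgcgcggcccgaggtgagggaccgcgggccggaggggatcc
SFXN4 and SLC25A29, at the 2 ends of the range of differences, held no match of either motif, SLC25A38 held 1 of each, and SLC25A46 held 3 CCGGAAG and 1 CACGTG match, none overlapping another. Of the 44 members 38 had such a stretch in the table. CCGGAAG or its complement was found in 8 of the 38 (21.1%), against 8.78% of the 27326 stretches of the same length in the table, which include non-coding genes. CACGTG was found in 7 (18.4%, against 6.47%), and GCGCATGCGC, a site of the respiratory gene factor NRF1, in 0 (against 1.13%). These are letter matches and not measured binding. GC content of the printed stretches was 71.2% for SFXN4, 49.6% for SLC25A38, 48.8% for SLC25A46 and 81.2% for SLC25A29.

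Amino acid carriers held both the largest negative value and several of the larger positive ones. SLC25A29, which carries basic amino acids (ENSG00000197119, GRCh38 chromosome 14, 100291111 to 100306547, minus strand), was at 32.0, 29.9 and 27.5 CPM in shECM1, against 44.0, 40.1 and 51.1 CPM in shNC. Every shECM1 library lay below every shNC library, with means of 29.8 ± 2.23 CPM in shECM1 and 45.1 ± 5.59 CPM in shNC (SD, n = 3 each). Its log2 fold change of -0.60 ± 0.13 (SE) was not called by edgeR (adjusted p = 0.0973) but was by DESeq2 (adjusted p = 0.00605). SLC25A38, which brings glycine into mitochondria for haem synthesis (ENSG00000144659, GRCh38 chromosome 3, 39383324 to 39397351, plus strand), was at 35.8, 32.4 and 37.7 CPM in shECM1, against 22.8, 31.4 and 20.7 CPM in shNC. Its groups did not overlap, with shNC replicate 2 again the nearest control, and the log2 fold change was 0.50 ± 0.16 (SE, edgeR adjusted p = 0.126). SLC25A13 and SLC25A12 encode the aspartate/glutamate carriers of the malate-aspartate shuttle. SLC25A13 was at 50.2, 55.8 and 59.3 CPM in shECM1 and 43.7, 50.2 and 32.6 CPM in shNC (log2 fold change 0.39 ± 0.15 SE, edgeR adjusted p = 0.177). SLC25A12 was at 22.9, 19.9 and 23.4 CPM in shECM1 and 17.7, 21.3 and 13.7 CPM in shNC (0.33 ± 0.17 SE, adjusted p = 0.271), and its groups overlapped. The ornithine carrier gene SLC25A15 was at 13.5, 13.6 and 14.2 CPM in shECM1, above the 12.0, 10.1 and 9.31 CPM of shNC (0.40 ± 0.16 SE, edgeR adjusted p = 0.177). The glutamate carrier gene SLC25A22 and the branched-chain amino acid carrier gene SLC25A44 overlapped between the groups (-0.04 ± 0.17 SE in SLC25A22 and 0.00 ± 0.15 SE in SLC25A44). SLC25A18 and SLC25A2 were among the rows outside.

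Carriers of cofactors and of nucleotides other than ADP and ATP had 8 of 9 members with a positive value and a median log2 fold change of 0.25. SLC25A26, the importer of S-adenosylmethionine, was at 30.0, 30.5 and 28.5 CPM in shECM1 and 21.6, 28.7 and 17.6 CPM in shNC, and shNC replicate 2 lay within the shECM1 range (0.39 ± 0.17 SE, edgeR adjusted p = 0.202). SLC25A33, a pyrimidine nucleotide carrier, was at 23.5, 30.3 and 28.9 CPM in shECM1 and 21.7, 25.6 and 16.2 CPM in shNC, with overlap (0.38 ± 0.17 SE), and its relative SLC25A36 also overlapped (0.06 ± 0.14 SE). SLC25A17, the peroxisomal carrier of the family, was at 24.3, 26.2 and 27.4 CPM in shECM1 and at 22.4, 22.4 and 22.5 CPM in shNC (0.21 ± 0.12 SE, edgeR adjusted p = 0.311). The NAD carrier gene SLC25A51, which has a near-identical relative in SLC25A52 and is therefore uncertain, was at 7.74, 8.10 and 7.54 CPM in shECM1 and 6.09, 6.54 and 6.73 CPM in shNC (0.27 ± 0.17 SE). SLC25A42, a coenzyme A carrier, was the only one of the 9 with a negative value, at 4.77, 4.71 and 5.56 CPM in shECM1, below the 6.26, 6.18 and 6.66 CPM of shNC (-0.34 ± 0.19 SE, edgeR adjusted p = 0.303). SLC25A16 and SLC25A32, a folate and FAD carrier gene, had overlapping groups (0.25 ± 0.15 and 0.10 ± 0.23 SE).

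Carriers of adenine nucleotides and phosphate held the most abundant transcripts of the family. SLC25A5, an ADP/ATP exchanger (GRCh38 chromosome X, 119468400 to 119471319, plus strand), was at 901, 961 and 889 CPM in shECM1, against 885, 866 and 960 CPM in shNC. The groups overlapped throughout (log2 fold change 0.02 ± 0.09 SE, edgeR adjusted p = 0.910), and processed copies of this gene elsewhere in the genome make its count uncertain. The phosphate carrier gene SLC25A3 was at 544, 570 and 602 CPM in shECM1, above the 459, 518 and 445 CPM of shNC (0.27 ± 0.10 SE, edgeR adjusted p = 0.155). SLC25A4, the ADP/ATP exchanger typical of muscle, was at 40.4 ± 5.27 CPM in shECM1 and 41.1 ± 5.43 CPM in shNC (SD, n = 3 each). SLC25A6 appeared in 2 rows, 1 with at most 2 counts per library and 1 with 162 to 288, because the gene lies in a region shared by the sex chromosomes, and its level is uncertain.

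The calcium-regulated exchangers of ATP-Mg for phosphate had values on both sides of 0. SLC25A24 was at 29.8, 31.6 and 31.5 CPM in shECM1, against 21.1, 29.1 and 20.3 CPM in shNC (0.40 ± 0.15 SE, edgeR adjusted p = 0.165). SLC25A25 was at 36.5, 39.7 and 35.3 CPM in shECM1, against 55.9, 41.0 and 54.6 CPM in shNC (-0.44 ± 0.14 SE, edgeR adjusted p = 0.122). Neither gene had overlapping groups, and in both shNC replicate 2 was the control nearest to the shECM1 libraries. SLC25A23, the third, overlapped between the groups (-0.12 ± 0.12 SE).

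The carboxylate carriers were split. SLC25A1, the citrate carrier, which exports the carbon for fatty acid and sterol synthesis (GRCh38 chromosome 22, 19175575 to 19178830, minus strand), was at 35.9, 36.0 and 40.4 CPM in shECM1, against 60.5, 39.4 and 62.6 CPM in shNC. The level in shNC replicate 2 lay within the shECM1 range, and the log2 fold change of -0.53 ± 0.17 (SE) was not called by edgeR (adjusted p = 0.122). SLC25A11, the oxoglutarate carrier of the malate-aspartate shuttle, was at 71.1 ± 5.30 CPM in shECM1 and 72.9 ± 5.33 CPM in shNC (SD, n = 3 each). SLC25A10, the dicarboxylate carrier, had 1 high library, with 10.4, 12.0 and 21.5 CPM in shECM1 and 10.1, 13.1 and 9.66 CPM in shNC. Its log2 fold change was 0.42 ± 0.26 (SE) with all libraries and 0.04 without shECM1 replicate 3.

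Among the other roles, most groups overlapped. SLC25A39, a carrier of glutathione, was at 115, 121 and 158 CPM in shECM1, above the 105, 113 and 113 CPM of shNC (0.25 ± 0.13 SE, edgeR adjusted p = 0.259), and its value was 0.10 without shECM1 replicate 3. Its relative SLC25A40 overlapped (0.19 ± 0.20 SE). SLC25A20, the acylcarnitine carrier of fatty acid oxidation, overlapped between the groups (-0.23 ± 0.19 SE). SLC25A45 was at 6.95, 4.53 and 4.24 CPM in shECM1 and 6.85, 5.39 and 8.66 CPM in shNC, also with overlap (-0.43 ± 0.25 SE, edgeR adjusted p = 0.330). The mitoferrins, which import iron, had log2 fold changes under 0.1 in size: SLC25A28 was at 22.9 ± 2.21 CPM in shECM1 and 23.8 ± 3.82 CPM in shNC, and SLC25A37 at 20.9 ± 0.104 CPM in shECM1 and 20.3 ± 0.448 CPM in shNC (SD, n = 3 each). SLC25A46, an outer membrane protein of mitochondrial dynamics, was at 29.1, 31.6 and 33.4 CPM in shECM1, above the 25.3, 26.9 and 21.4 CPM of shNC (0.35 ± 0.13 SE, edgeR adjusted p = 0.156). Of the genes related to uncoupling proteins, SLC25A14 was the most abundant at 58.7 ± 5.91 CPM in shECM1 and 52.4 ± 8.57 CPM in shNC (SD, n = 3 each), and SLC25A27 and SLC25A30 were at -0.23 ± 0.20 and -0.05 ± 0.28 (SE). Members whose substrate is less settled had low levels, with log2 fold changes of 0.54 ± 0.42 (SE) in SLC25A53, -0.08 ± 0.19 in SLC25A43 and -0.38 ± 0.29 in SLC25A35. In SLC25A35 only shNC replicate 1, at 5.50 CPM, lay far from the other 5 libraries (2.66 to 3.44 CPM).

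Levels between genes were set side by side per kilobase of merged exons, as the mean of all 6 libraries. SLC25A5 led with 607 CPM per kb, ahead of SLC25A3 (58.8), SLC25A39 (34.3), SLC25A11 (27.0) and SLC25A1 (21.9). The lowest were SFXN5 (0.187) and SLC25A53 (0.204). Merged exons cover every annotated isoform, and if the libraries are of a 3′ type, which the labels leave unclear, length scaling does not apply. The summed level of all 44 members was 2573, 2662 and 2701 CPM in shECM1, against 2453, 2499 and 2498 CPM in shNC, and without SLC25A5 and SLC25A3 it was 1128, 1132 and 1210 CPM in shECM1 and 1110, 1114 and 1093 CPM in shNC. Both sums lay higher in every shECM1 library than in any shNC library, and the margin was smaller in the sum without SLC25A5 and SLC25A3.

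**Figure D3:**
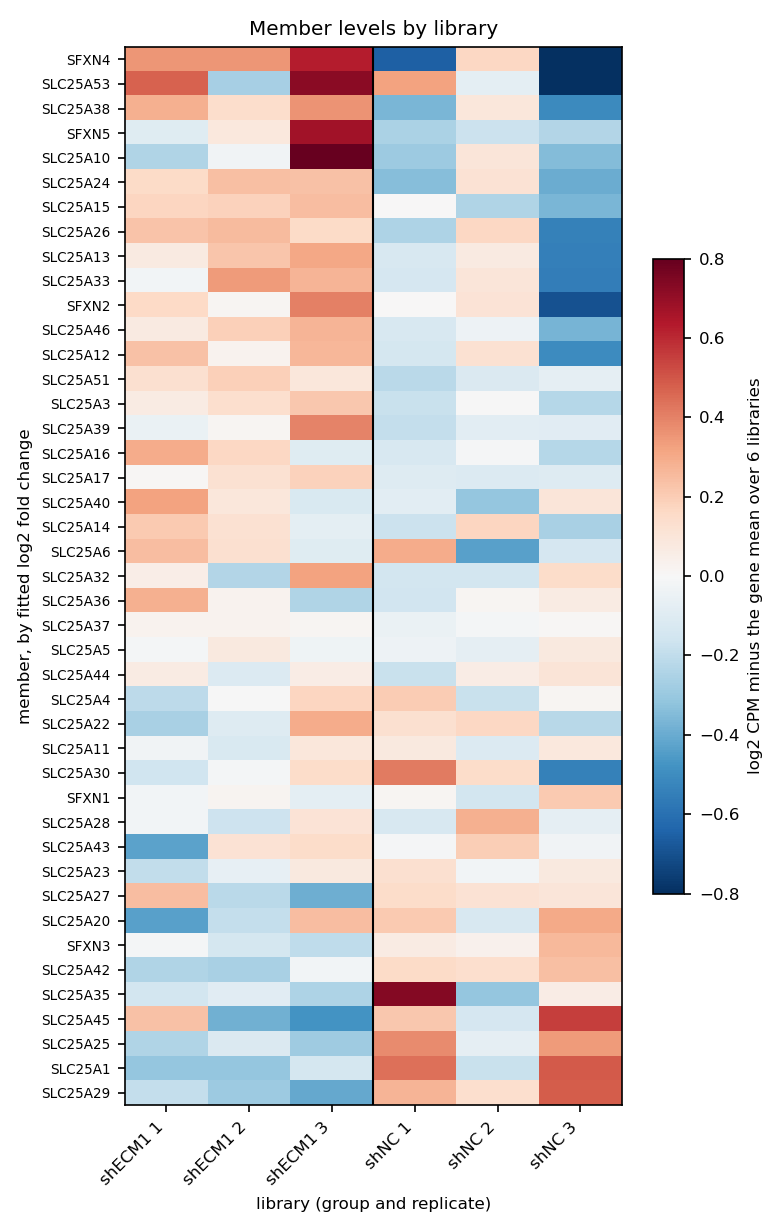
Log2 CPM of each of 43 members minus its own mean over 6 libraries (colour, capped at 0.8 either way), with shECM1 libraries left of the line and shNC libraries right of it. SFXN4, in the top row, is lowest in shNC replicates 1 and 3, and SLC25A29, in the bottom row, is higher in every shNC library.

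The number of members called depended on 1 control library. In 28 of the 44 members (63.6%) shNC replicate 2 lay nearer to the shECM1 mean than to the mean of the other controls, as in 68.1% of all genes tested. It was the highest control in 9 of the 13 members with shECM1 above shNC and the lowest control in all 4 with shECM1 below. The same shares over all genes without overlap were not computed, so these counts cannot be read as a trait of the members. Without shNC replicate 2, edgeR called 13 members (23.9% of all genes), 10 higher, beside 9.73% of all genes, and 3 lower, beside 14.1% of all genes. The higher ones included SFXN4, SLC25A38, SLC25A26, SLC25A24, SLC25A33, SLC25A13, SLC25A12, SLC25A46 and SLC25A3, and the lower ones SLC25A29, SLC25A1 and SLC25A25. SLC25A38 then had a log2 fold change of 0.71 (edgeR adjusted p = 0.00321), SLC25A1 of -0.70 (adjusted p = 0.00145) and SLC25A29 of -0.66 (adjusted p = 0.00329). The value of SFXN4 was 1.21 without that library. Leaving out any of the other 5 libraries gave 0 called members. On the first principal component shNC replicate 2 was the control nearest to the shECM1 libraries, so a fit without it favours calls. Adjusted p-values from such fits, here and below, describe this dependence and are no separate evidence of a difference. DESeq2 without shNC replicate 2 called the same 13 members (21.5% of all genes), 10 higher beside 8.55% and 3 lower beside 12.9% of all genes.

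**Figure D4:**
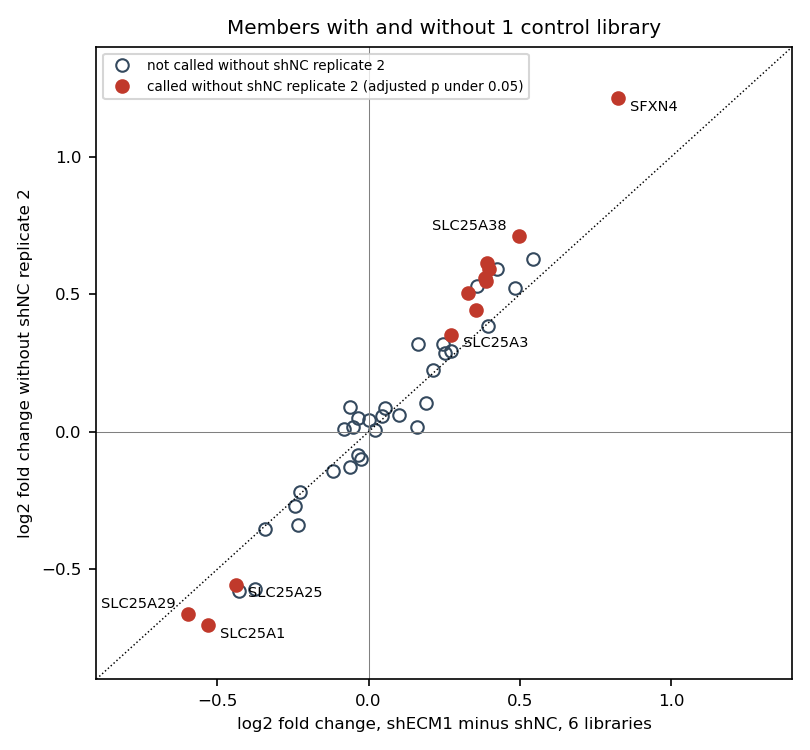
Log2 fold change of 43 members, shECM1 minus shNC, with all 6 libraries (x axis) and without shNC replicate 2 (y axis), the other 5 libraries being the same, with equality as a dotted line. Filled points are members called by edgeR without that library, and SFXN4 lies farthest off the line at 0.82 and 1.21.

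Transcript GC content moved with the differences. Across the 43 members with an annotated transcript, Spearman's rho between GC content and log2 fold change was -0.35, and across 12502 genes tested it was -0.38, where points share libraries and genes are not independent. The part of GC content in the differences was not tested beyond the fits below. The 10 members higher at an unadjusted p under 0.05 had a median GC content of 46.7%, and the 3 lower ones 58.4%. With a per-library trend on GC content as an offset, the value was 0.82 for SFXN4, 0.55 for SLC25A38, -0.41 for SLC25A29, -0.25 for SLC25A1 and 0.20 for SLC25A46, against 0.82, 0.50, -0.60, -0.53 and 0.35 without it. Among members with a log2 fold change of at least 0.2 in size, the offset moved 10 by more than 1.5 times. Smaller in size were SFXN3 (-0.10), SLC25A1, SLC25A16 (0.15), SLC25A17 (0.14), SLC25A35 (-0.17), SLC25A42 (-0.14), SLC25A45 (-0.22) and SLC25A46, and larger were SLC25A10 (0.65) and SLC25A39 (0.44). With that offset and without shNC replicate 2, edgeR called 12 members (26.4% of all genes), 9 higher, beside 13.8% of all genes, and 3 lower, beside 12.6%. SLC25A10 (0.90, edgeR adjusted p = 0.0145) and SLC25A39 (0.52, adjusted p = 0.00565) were called there, and SLC25A12, SLC25A3 and SLC25A46 were not.

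Genes that work with these transporters were measured beside them, from lists chosen with earlier results known. The route that inserts carriers into the inner membrane, here the TIM22 complex, the small TIM chaperones and the outer membrane receptor TOMM70, had 8 of 9 tested members with a positive value and a median log2 fold change of 0.37. TIMM8B, a small TIM chaperone, was at 77.7, 94.3 and 98.4 CPM in shECM1, against 56.9, 76.6 and 53.0 CPM in shNC (0.54 ± 0.15 SE), and DESeq2 called it (adjusted p = 0.0268). TIMM22, the channel of that complex, was at 33.3, 31.6 and 34.4 CPM in shECM1, against 22.8, 26.1 and 21.3 CPM in shNC (0.50 ± 0.13 SE), also called by DESeq2 (adjusted p = 0.0265). TIMM29, another subunit, was lowest at -0.22 ± 0.15 (SE). With the GC offset TIMM8B was at 0.50, TIMM22 at 0.56 and TIMM29 at -0.02. No gene of these lists was called by edgeR with all libraries. Without shNC replicate 2, edgeR called 7 of the 9 higher and 0 lower, where 9.73% of all genes were higher and 14.1% lower. In that fit 1 gene of the complex I assembly list, 2 of the iron-sulfur list and 3 of the serine and glycine list were higher, 2 of the other transporters were lower, and 0 of the carrier-fold genes with other symbols were called.

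All 7 genes of the complex that builds the complex I membrane arm, with which SFXN4 is associated, had positive values, with a median of 0.18. TMEM126B had the largest, at 110.7, 115.4 and 96.4 CPM in shECM1 against 75.5, 90.6 and 69.9 CPM in shNC (0.45 ± 0.12 SE, DESeq2 adjusted p = 0.0335), and NDUFAF1 the smallest (0.03 ± 0.15 SE). Of 12 iron-sulfur assembly genes 8 were positive, with a median of 0.13, from FDXR (-0.21 ± 0.15 SE) to the ferredoxin gene FDX2 (0.85 ± 0.28 SE), and DESeq2 called 0, beside 5.57% of all genes. All 8 tested genes of mitochondrial serine and glycine metabolism were positive, with a median of 0.22, from MTHFD2 (0.05 ± 0.09 SE) to GCSH, a subunit of the glycine cleavage system (0.65 ± 0.29 SE), and DESeq2 again called 0. Other mitochondrial transporters, such as the calcium uniporter, the pyruvate carrier and the porins, were split, with 8 of 15 positive and a median of 0.09. They ran from the sodium/calcium exchanger gene SLC8B1 (-0.58 ± 0.17 SE) to ABCB10 (0.28 ± 0.15 SE). Of carrier-fold genes with other symbols 3 were tested, from UCP2 (-0.24 ± 0.17 SE) to MTCH2 (0.18 ± 0.10 SE). All genes tested had a median of 0.01. With the GC offset MTHFD2 turned to -0.05, and FDXR was at 0.01, UCP2 at -0.05 and NDUFAF1 at 0.04. The same fit gave 0.32 for TMEM126B, 1.05 for FDX2, 0.55 for GCSH, -0.40 for SLC8B1, 0.24 for ABCB10 and 0.11 for MTCH2.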

How the data were processed

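The values are raw counts, which the authors deposited as 1 table of genes by libraries. The tools named, per the submitters' processing notes, are STAR, featureCounts, fastp, Seurat and DESeq2, and the builds are GRCh38 and hg38. Roles, versions and the strand setting: not given in the sources used here. The labels' protocols describe both total RNA and droplet single-cell libraries, and each column was analysed as 1 bulk library. The labels do not tie replicates to separate cultures, and p-values therefore reflect only the spread between these libraries, perhaps technical.

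Of 20476 identifiers 20462 had a symbol. GENCODE release 29 (GRCh38) gave coordinates, merged-exon length and GC content for 20244. Without a strand setting, reads of overlapping genes cannot be told apart: 12 members overlap another gene of the table.

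The tests ran under R 4.3.3 and edgeR 4.0.16 on the deposited counts: filterByExpr (12576 genes), TMM, glmQLFit and glmQLFTest with no covariate, Benjamini-Hochberg adjustment over all genes tested and a threshold of 0.05. Standard errors were taken as the absolute log2 fold change over the root of the F statistic. Alternatives were other scalings and filters, DESeq2 1.42.0, limma-voom (limma 3.58.1), the replicate number as a block, and leaving out each library in turn. A GC offset, and DESeq2 and the GC offset without shNC replicate 2, were chosen after seeing the data. Simulated counts with known changes served to test the fit.

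The members and the lists of roles and related genes were chosen with earlier results of these data known. Values were given for SFXN1 to SFXN5, for the 6 largest and 6 smallest log2 fold changes and for the member of highest level per kilobase in each role. From each related list the largest and smallest value were named. One member and 1 marker gene are not reported here by name, and the figures leave that member out. Any other gene was picked with its values known.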

Additional observations from a re-analysis of the deposited data

How the results depend on the processing

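The number of called members was 0 under the other scalings, the stricter filters on counts, limma-voom, the replicate block and the GC offset. It was 2 with no count filter (505 genes in all) and 2 with DESeq2 (701 genes). Leaving out 1 library gave 0 to 13 members and 0 to 3037 genes, all from the fit without shNC replicate 2. Without that library DESeq2 called 13 members and 2732 genes, and the GC offset 12 members and 3360 genes. Of those 12 members 10 were among the 13 that edgeR called without that library. The number of members without overlap ran from 18 to 26 when 1 library was left out, and was 26 in the DESeq2 fit without shNC replicate 2. It was not recomputed under the GC offset, which does not alter the levels. Groups separate more easily with fewer libraries, and the share over all genes was not computed in those fits. The median log2 fold change of the members stayed between 0.08 and 0.16 in every fit.

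ECM1 was called with no count filter (-1.58), with DESeq2 (-1.58), with DESeq2 without shNC replicate 2 (-1.89) and with the GC offset without it (-1.71). It ran from -1.88 to -1.24 when 1 library was left out, and edgeR called it without shNC replicate 2 (-1.88, adjusted p = 0.000192) and in none of the other 5 such fits.

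Of the 44 members 31 kept their sign in every fit that held them, 28 of them in all 19 fits and SFXN5, SLC25A35 and SLC25A53 in 18, since the filter of 50 counts removed those 3. Without shNC replicate 3 the value was 0.23 for SLC25A13, 0.22 for SLC25A33, -0.24 for SLC25A45 and 0.22 for SLC25A53. SLC25A53 was also at 0.31 without shECM1 replicate 3 and 0.87 without shNC replicate 1, SLC25A45 at -0.66 without shECM1 replicate 1, and SLC25A35 at -0.04 without shNC replicate 1 and -0.57 without shNC replicate 2. Among those named by rule, SLC25A28 turned to 0.0814 with DESeq2 without shNC replicate 2, to 0.10 with the GC offset and to 0.31 with both, and SLC25A11 to 0.16 with the GC offset and 0.16 with both. SLC25A43 turned to 0.0266 with the GC offset without shNC replicate 2, and SLC25A5 to -0.0046 with DESeq2 without it. Leaving out 1 library gave -0.136 to 0.0906 for SLC25A28, -0.0932 to 0.0170 for SLC25A11, -0.130 to 0.0386 for SFXN1, -0.172 to 0.0793 for SLC25A43 and -0.0109 to 0.0676 for SLC25A5. The cause was not tested.

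The titles do not say that the replicate numbers mark a batch, so the numbers were not taken as pairs. Deviations from the group means had correlations of -0.07, -0.05 and -0.18 between same-numbered libraries (numbers 1, 2 and 3). Within a group these deviations sum to 0 and are tied to one another, so the correlations cannot decide whether libraries were paired. The replicate block gave 0 called genes, with 2414 at an unadjusted p under 0.05 against 2827 without it. Members rested on 8 to 16123 counts per library, and the least abundant, SFXN5 and SLC25A53, have the widest errors.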
